A study of Mus musculus with 6 samples.

Results

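Hba-a1 and Hba-a2, the genes for the alpha chain of hemoglobin, and Alas2, the gene for the first step of erythroid heme synthesis, were followed in RNA from the bone marrow of leukemic mice. They are 3 genes of the 9295 in the deposited table and were taken by symbol (gene IDs 15122, 110257 and 11656). The series holds 3 libraries of genotype PAPOLA KO, in which the gene for poly(A) polymerase alpha is labelled as knocked out, and 3 libraries of genotype PAPOLA flox/flox, in which that gene carries recombination sites, titled KO and Con below. All 6 share the tissue, bone marrow, and the cell type label leukemia. The labels name neither the recombinase nor its promoter, and give no leukemia-driving lesion, age, cell sort or number of animals behind a sample. Where replicates are not separate animals, the p-values measure only a spread that may be technical.

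Hemoglobin, the oxygen carrier of red cells, is a tetramer of alpha and beta globin chains, each holding a heme group. In the adult mouse the alpha chain comes from the neighbouring copies Hba-a1 and Hba-a2. Heme synthesis starts in mitochondria, where 5-aminolevulinate synthase joins glycine to succinyl-CoA. Alas2 encodes the form of this enzyme that erythroid cells make, and Alas1 the form found in other cells. In erythroblasts both globin and Alas2 are driven by GATA1 and its partners, and translation of the Alas2 messenger is held back by iron regulatory proteins when iron is scarce. Bone marrow is the main site of red cell production in the adult.

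The targeted gene does not check the labels. Papola was at 342, 361 and 314 CPM (counts per 1000000 counts after TMM scaling, which sets libraries on a common scale) in KO replicates 1, 2 and 3, against 284, 297 and 291 CPM in Con replicates 1, 2 and 3. Its log2 fold change (KO over Con, as everywhere below) was 0.22 with TMM scaling (edgeR adjusted p = 0.0291) and -0.13 with library size only (adjusted p = 0.187), and without any 1 library other than KO replicate 3 it did not pass (adjusted p 0.0614 to 0.0814). The counts are given per gene, so a deleted exon would not show in them, and every direction below is that of the libraries labelled KO against those labelled Con. Column totals were 8875022 to 9768143 counts in the KO libraries and 11253932 to 11436216 in the Con libraries. Con replicates 2 and 3 were closer to each other (chi-square per degree of freedom 1.68) than any other pair within a group (17.7 to 23.7), and were kept as 2 samples. In bulk RNA fewer cells of a type and less RNA per cell cannot be told apart, which holds for every result here.

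The copies Hba-a1 and Hba-a2 were nearly identical in coding sequence. Their coding sequences, both 429 bases long, differed at 1 position, written C381T (Hba-a1 base, position counted from the A of the start codon, Hba-a2 base). The stretch around it, from position 369 to 393 in the GENCODE M21 transcripts (build GRCm38, chromosome 11, plus strand), is shown with the differing base in capitals.
Hba-a1: tgcctctctggaCaaattccttgcc
Hba-a2: tgcctctctggaTaaattccttgcc
Of all 100-base windows of the annotated Hba-a2 transcript, 74.5% occurred letter for letter in that of Hba-a1, and 56.5% the other way round. The deposited counts of each copy were not whole numbers, while their sum was whole (within 0.001) in 6 of 6 libraries. How reads shared by the copies were divided is not stated, so the values of each copy are uncertain, and the sum does not depend on that division.

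Upstream sequence is shown because Hba-a1, Hba-a2 and Alas2 moved together while Alas1 moved the other way. The 250 bases before the RefSeq start of each gene (build GRCm38.p6) were searched on both strands for AGATAA and for TGATAA, which are forms of the GATA motif, for CACCC, the core of KLF1 sites, for the CCAAT box and for TATAA. Matches are in capitals. All 5 genes searched had an entry in the RefSeq table. The windows of Hba-a1 and Hba-a2 shared an identical run of 247 bases, so only that of Hba-a2 is printed. The windows shown are Hba-a2 at chr11:32296242-32296491 (plus strand), Hbb-bt, a gene for the adult beta chain, at chr7:103813924-103814173 (minus strand), Alas2 at chrX:150547167-150547416 (plus strand) and Alas1 at chr9:106247731-106247980 (minus strand).
Hba-a2: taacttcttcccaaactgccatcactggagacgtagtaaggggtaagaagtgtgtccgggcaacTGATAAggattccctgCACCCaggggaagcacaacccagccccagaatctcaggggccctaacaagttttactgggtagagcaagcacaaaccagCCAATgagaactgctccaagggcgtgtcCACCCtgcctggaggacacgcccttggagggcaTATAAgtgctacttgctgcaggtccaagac
Hbb-bt: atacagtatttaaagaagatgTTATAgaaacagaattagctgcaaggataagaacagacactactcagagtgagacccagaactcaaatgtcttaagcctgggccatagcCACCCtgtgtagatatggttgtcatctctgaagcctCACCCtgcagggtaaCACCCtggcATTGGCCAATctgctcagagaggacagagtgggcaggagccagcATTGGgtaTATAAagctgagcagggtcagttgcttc
Alas2: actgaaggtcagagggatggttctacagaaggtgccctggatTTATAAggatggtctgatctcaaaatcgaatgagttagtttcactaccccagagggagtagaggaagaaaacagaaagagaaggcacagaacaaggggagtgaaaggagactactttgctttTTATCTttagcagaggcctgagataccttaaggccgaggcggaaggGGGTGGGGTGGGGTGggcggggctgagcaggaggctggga
Alas1: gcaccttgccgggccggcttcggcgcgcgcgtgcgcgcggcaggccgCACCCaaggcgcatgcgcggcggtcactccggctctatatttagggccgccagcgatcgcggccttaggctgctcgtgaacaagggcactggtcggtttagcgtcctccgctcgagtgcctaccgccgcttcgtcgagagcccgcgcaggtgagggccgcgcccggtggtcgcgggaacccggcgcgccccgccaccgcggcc
Hba-a2 held TGATAA once, CCAAT once, TATAA once and CACCC at 2 places. Alas2 held AGATAA once and CACCC at 3 places, on the opposite strand, and its TTATAA is 1 place that matches TATAA on both strands. Hbb-bt held CACCC at 3 places, CCAAT at 3 and TATAA at 2, and neither GATA form. Alas1 held only CACCC, once in this window and once in the window of a second listed start. Among all 32851 windows in the table, 9.99% held AGATAA, 7.94% TGATAA, 52.0% CACCC, 33.8% CCAAT and 22.8% TATAA. These matches are descriptions of letters, not of bound sites.

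The alpha-globin genes were at low counts in the Con libraries and among the most strongly raised genes in the KO libraries. Hba-a1 had 75157.38, 100813.03 and 96168.27 counts in KO replicates 1, 2 and 3, against 107.64, 80.73 and 70.4 in Con replicates 1, 2 and 3. On the CPM scale this was 8782, 12436 and 12375 in KO and 8.18, 6.37 and 5.60 in Con. The lowest KO library, replicate 1, still stood more than 1000 times above the highest Con library. This is a 1662-fold higher fitted level in KO, or 10.70 on the log2 scale (SE 0.25, edgeR's quasi-likelihood test, adjusted p = 2.39e-09 by Benjamini-Hochberg).

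Hba-a2 had 35872.62, 55642.97 and 47320.73 counts in the KO libraries, against 15.36, 9.27 and 18.6 in the Con libraries. Its level was 4192, 6864 and 6089 CPM in KO and 1.14, 0.707 and 1.52 CPM in Con, so the ranges lay far apart. The log2 fold change of 12.30 (SE 0.32, edgeR adjusted p = 5.69e-09) was the highest of all 8358 genes tested, and that of Hba-a1 ranked 8. The difference in fold between the copies goes with a different division of reads. Hba-a1 took 67.7%, 64.4% and 67.0% of alpha-globin counts in KO replicates 1, 2 and 3, against 87.8% (exact Clopper-Pearson 95% interval 80.7 to 93.0), 90.0% (81.9 to 95.3) and 78.7% (68.7 to 86.6) in Con replicates 1, 2 and 3. The intervals cover counting error only and leave out how shared reads were divided. The Con shares rest on 123, 90 and 89 counts and were above the KO shares in each library. Whether they reflect the copies or the way shared reads were divided was not tested.

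The summed alpha-globin counts were 111030, 156456 and 143489 in KO replicates 1, 2 and 3, or 1.14%, 1.74% and 1.62% of all counts. In Con the sum was 123, 90 and 89 counts, or 0.00109%, 0.000787% and 0.000791%. The mean level was 16908 ± 3435 CPM in KO and 7.83 ± 1.28 CPM in Con (SD, n = 3 each), and the fitted difference was 11.07 on the log2 scale (SE 0.25). An exact two-sided permutation test over the 6 libraries gave p = 0.1, the smallest that 3 against 3 allow. Within the KO group replicate 1 was the lowest for both copies.

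Alas2 was barely detected in the Con libraries and well detected in the KO libraries. It had 3422.97, 3719.99 and 4380.99 counts in KO replicates 1, 2 and 3, against 4, 8 and 2 in Con replicates 1, 2 and 3. On the CPM scale the values were 399.99, 459 and 564 in KO and 0.303, 0.629 and 0.160 in Con. The log2 fold change was 10.30 (SE 0.27, edgeR adjusted p = 5.45e-09), ranking 13 of 8358. The 14 Con counts limit its precision. The ratio of summed counts was 1294-fold with an exact 95% interval of 771 to 2369 that covers counting error only, and without Con replicate 2, which holds 8 of them, the log2 fold change was 10.93. All 3 genes passed the test upward. Of all genes tested 39.6% did so, 42.4% passed downward and 82% in either direction. For all 3 genes the KO range lay above the Con range, as it did for 40.5% of all genes, while it lay below for 44% and the ranges were apart for 84.5%. With library size as the only scaling, 35.7% of calls were upward in place of 48.3%, and the median over all genes shifted by -0.35, far less than the changes of these 3.

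**Figure D1:**
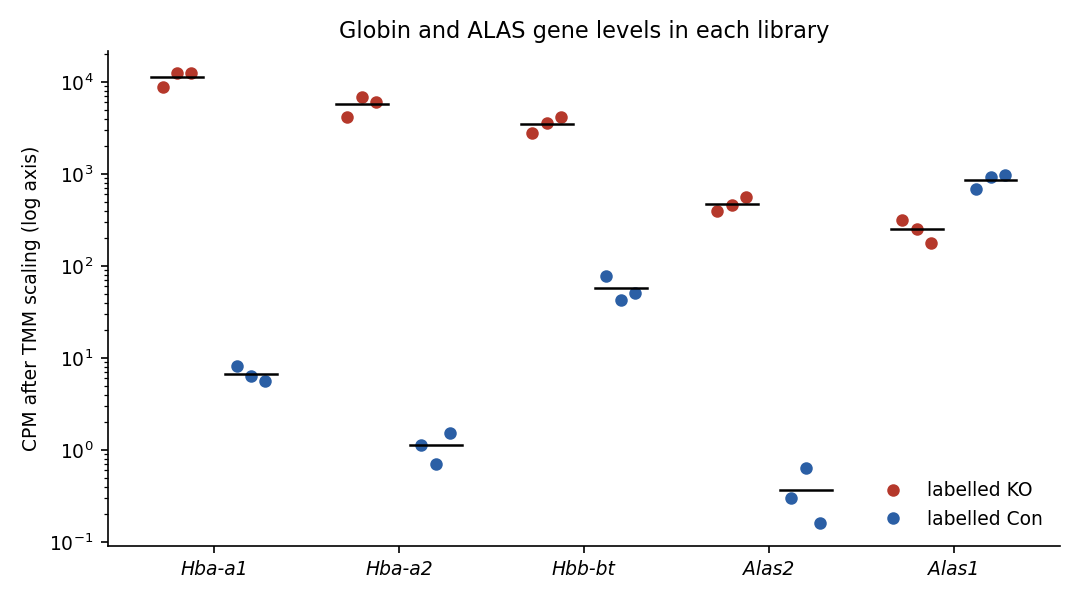
Levels of Hba-a1, Hba-a2, Hbb-bt, Alas2 and Alas1 in each library, in CPM after TMM scaling on a log axis. Points are libraries (3 labelled KO, left, and 3 labelled Con, right, for each gene) and bars are group means. Alas1 alone is lower in the KO libraries, and Alas2 in Con lies under 1 CPM.

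The proportion of alpha-globin to Alas2 overlapped between the groups, although both differed more than 1000-fold in level. Alpha-globin counts per Alas2 count were 32.4, 42.1 and 32.8 in KO replicates 1, 2 and 3, against 30.75 (95% interval 11.7 to 115), 11.25 (5.47 to 26.9) and 44.5 (11.96 to 373) in Con replicates 1, 2 and 3. The KO values lay within the range of the Con values. Over the pooled counts the ratio was 35.7 (35.0 to 36.3) in KO and 21.6 (12.7 to 39.9) in Con. These are ratios of counts, not corrected for length, and the few Alas2 counts in Con leave a wide interval.

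The beta chain gene Hbb-bt did not follow in proportion. It had 23789.23, 29221.83 and 32212.04 counts in KO, against 1032.54, 536.51 and 636.77 in Con, a log2 fold change of 5.94 (SE 0.28, edgeR adjusted p = 1.39e-07). Alpha-globin counts per Hbb-bt count were 4.67, 5.35 and 4.45 in KO replicates 1, 2 and 3, and 0.119, 0.168 and 0.1398 in Con replicates 1, 2 and 3. The groups were well apart, with a mean log2 ratio of 2.27 ± 0.14 in KO and -2.83 ± 0.25 in Con (SD, n = 3 each). This ratio was chosen after its values were seen, so no test is given. Hbb-bt counts are not whole numbers, and the other adult beta gene, with which it may share reads, is not analysed here.

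Per kilobase of the longest protein-coding GENCODE transcript of the gene, the mean Hbb-bt level was 4993 CPM in KO and 81.3 CPM in Con. On the same scale Hba-a1 was at 16020 CPM per kilobase in KO and 9.61 in Con, and Hba-a2 at 10316 in KO and 2.02 in Con. Thus Hbb-bt stood below each alpha copy in the KO libraries and above both in the Con libraries. Of the 13 genes of the globin list, 3 are in the table, namely Hba-a1 and Hba-a2 themselves and Hbb-bt. All 3 were called higher, as were 39.6% of all genes tested. The list median, 10.70 on the log2 scale, is the value of Hba-a1 and adds nothing to it (-0.06 over all genes tested). The embryonic globins, the theta genes, Hbb-bs and the alpha chaperone gene Ahsp are not analysed here.

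**Figure D2:**
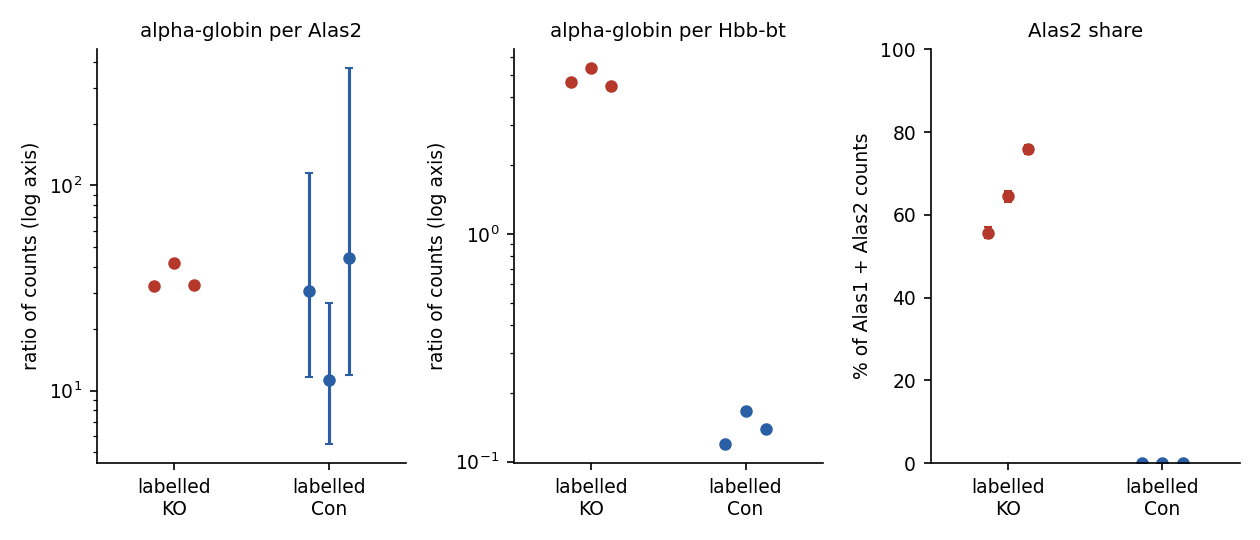
Within-library ratios for the 3 libraries labelled KO (left of each panel) and the 3 labelled Con (right). The panels show alpha-globin counts per Alas2 count and per Hbb-bt count on log axes, and Alas2 as a percentage of Alas1 plus Alas2 counts from 0 to 100. Points are libraries and bars are exact 95% counting intervals (none drawn in the middle panel). Alpha-globin per Alas2 overlaps between groups, while the other panels separate them.

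The 2 genes for the first enzyme of heme synthesis moved in opposite directions. Alas1 had 2722, 2051 and 1394 counts in KO replicates 1, 2 and 3, against 9000, 11860 and 12141 in Con replicates 1, 2 and 3. Its level was 250 ± 69.4 CPM in KO and 862 ± 157 CPM in Con (SD, n = 3 each), and it fell by 1.78 on the log2 scale (SE 0.21, edgeR adjusted p = 4.86e-05). Alas2 made up 55.7%, 64.5% and 75.9% of Alas1 plus Alas2 counts in the KO libraries, and 0.0444%, 0.0674% and 0.0165% in the Con libraries. KO replicate 3, with the most Alas2, had the least Alas1. Per kilobase of the longest annotated transcript, Alas2 was at 233 CPM and Alas1 at 73.6 CPM in KO, while in Con Alas2 was at 0.179 CPM and Alas1 at 253 CPM. That transcript has 3399 bases for Alas1, and a shorter one would raise the Alas1 values.

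The 6 later enzymes of the pathway reported here were higher in the KO libraries, by far smaller factors than Alas2. Alad, which joins 2 aminolevulinate molecules to porphobilinogen, was at 72.7 ± 10.1 CPM in KO and 20.4 ± 1.91 CPM in Con (log2 fold change 1.83). Uros, which closes the porphyrin ring, changed by 2.06 (SE 0.12, edgeR adjusted p = 3.54e-07), and Urod, which trims its side chains, by 1.29. The smallest changes were those of Cpox (0.81) and Ppox (0.88), the oxidases that follow. Fech, which inserts iron, was at 223 ± 39.1 CPM in KO and 61.4 ± 3.82 CPM in Con (1.86).

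Of these 8 enzymes, Alas1 and Alas2 included, 7 rose and Alas1 alone fell, where 39.6% of all genes tested rose and 42.4% fell. The median of the 8 was 1.56 on the log2 scale. With library size as the only scaling 6 rose and 1 fell (median 1.202), and Cpox, at 0.44, no longer passed (adjusted p = 0.0643). Together the 8 enzymes took 0.125% to 0.144% of all counts in KO and 0.122% to 0.141% in Con, ranges that overlap. Alas1 had the most counts of the 8 in each Con library, and Alas2 in each KO library. The overlap therefore does not mean that the enzymes were unchanged.

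**Figure D3:**
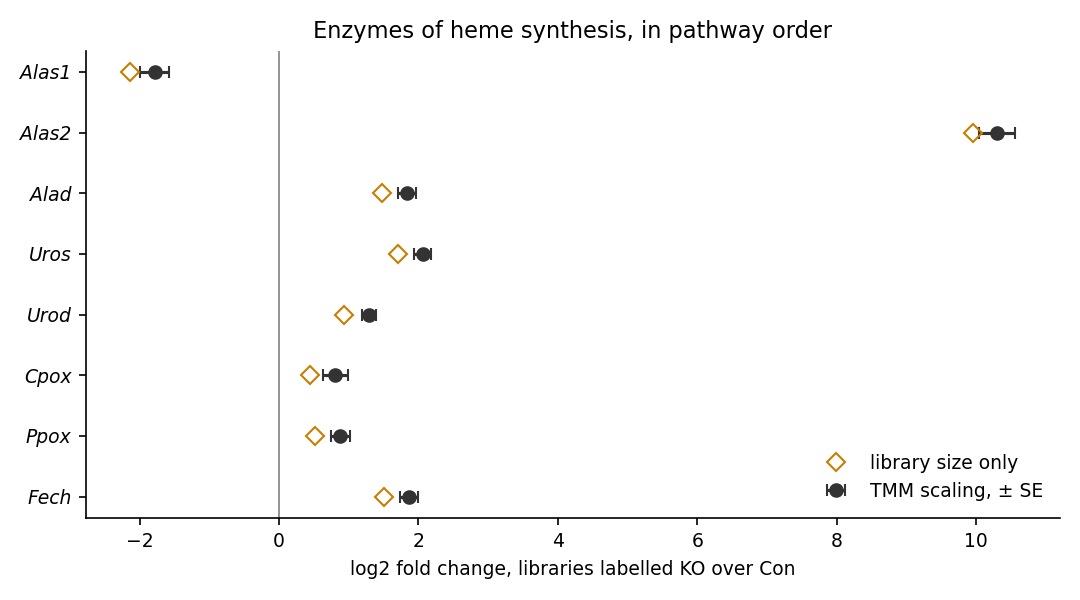
Log2 fold changes (libraries labelled KO over Con) of 8 enzymes of heme synthesis, listed from the first step down. Filled points with bars are the TMM-scaled estimates ± SE, and open diamonds those with library size as the only scaling. Alas1 lies left of 0, Alas2 at 10.30, and the others between 0.81 and 2.06 with TMM scaling.

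The Alas2 messenger carries an iron-responsive element, a hairpin bound by iron regulatory proteins. A search of the 126-base leader of the GENCODE M21 transcript (build GRCm38, chromosome X, plus strand) for a bulged C, a stem of 5 bases and the loop CAGTGN found 1 match, at base 90, with all 5 stem bases able to pair. It is shown with the loop in capitals, since Aco1, described next, encodes one of the proteins that bind it.
Alas2 leader: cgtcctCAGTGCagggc
Translation was not measured here. Of all genes tested 39.6% were called higher and 42.4% lower, shares to set beside the list counts here and below. With library size only, 2488 of the 8358 genes tested were called higher and 4476 lower, with a median of -0.41. Those values belong beside the list counts and medians under that scaling. Of 8 genes of iron uptake and iron regulation tested, 4 rose and 4 fell (median -0.08), and with library size only 3 rose and 4 fell (median -0.43). Those with the smallest p were Steap3, the ferrireductase of erythroid endosomes, which fell by 1.91, Steap4, a related reductase, which rose by 5.81, Slc11a2, the transporter that carries iron out of endosomes, which fell by 2.24, and the iron chaperone gene Pcbp2, which rose by 0.71. The transferrin receptor gene Tfrc and Aco1, which encodes iron regulatory protein 1, both named after their values were seen, fell by 0.47 and 0.64. Pcbp1 was at 0.32 with TMM scaling and -0.03 with library size only.

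The list of heme and iron transport holds carriers of the mitochondrial membrane together with the matrix protease genes Clpp and Clpx and with Slc48a1, which moves heme out of lysosomes. Of its 10 genes tested and reported here 5 rose and 3 fell (median 0.38), and with library size only 5 rose and 5 fell (median 0.03). Slc25a38, the carrier that brings glycine for the ALAS reaction, rose by 1.62, Slc25a37, mitoferrin 1, by 1.09 and Fam210b by 1.42. Flvcr2 had 3 counts over the KO group and 105 over the Con group, 22.3-fold lower in KO (counting interval 7.41 to 110). Its fitted log2 fold change was -4.35, and -5.21 without KO replicate 1. Slc48a1 and Clpp, also lower in KO, fell by 0.55 and 0.31. The fall of Clpp was not called without any 1 library other than KO replicate 2 (adjusted p 0.0523 to 0.143).

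Of 7 genes of iron-sulfur cluster assembly 3 rose and 3 fell. Their median was 0.29, or -0.07 with library size only. The scaffold gene Iscu rose by 1.05 and Isca1 by 1.30, and the chaperone gene Hspa9 fell by 1.27 and the ferredoxin gene Fdx1 by 1.47. Among heme-responsive regulators 2 genes were tested. Eif2ak1, the kinase that stops globin translation when heme is short, rose by 1.15, and the transcription factor gene Nfe2l1 fell by 1.66. Of 3 genes of heme and globin clearance tested, Hp, haptoglobin, rose by 4.01 and Cd163, the receptor for its complex with hemoglobin, by 9.90, while the heme-uptake receptor gene Lrp1 fell by 2.13. Cd163 had 2, 1 and 1 counts in Con replicates 1, 2 and 3, so the size of its rise is imprecise.

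Erythroid transcription factors changed by smaller factors than alpha-globin and Alas2. Gata1, named after its values were seen, had 1043, 859 and 837 counts in KO and 1134, 800 and 773 in Con. Its log2 fold change was 0.67 with TMM scaling (edgeR adjusted p = 0.00105) and 0.31 with library size only (adjusted p = 0.0666). Klf1, the erythroid factor that binds CACCC sites, was at 61.7 ± 13.2 CPM in KO and 11.2 ± 3.56 CPM in Con, a change of 2.46 (SE 0.23). E2f2 rose by 2.73, Nfe2 by 1.51 and Lmo2 by 1.07. Of the 12 factors tested 8 rose and 4 did not pass (median 0.67), where 39.6% of all genes tested rose. With library size only 6 rose and 1, Gfi1b, fell (median 0.31).

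Red cell membrane and surface genes rose widely. Of 25 tested 23 rose and 1 fell. The median was 2.93, between the median of the heme enzymes and the value of Hbb-bt. Slc4a1, the band 3 anion exchanger, had 3877, 1962 and 3269 counts in KO and 1 count in each Con library, 4774-fold higher (counting interval 1633 to 23156). Epb42, a membrane skeleton protein, rose by 6.98, Ermap by 5.18 and Cd24a, which other blood cells also express, by 2.93. The glucose transporter gene Slc2a1 fell by 2.45. KO replicate 2 had the fewest Slc4a1 counts of its group, while replicate 1 had the fewest alpha-globin and Alas2 counts.

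From the list of reticulocyte maturation 9 genes were tested, of which 4 rose and 1 fell. Their median was 0.26. With library size only 3 rose and 2 fell (median -0.10). Trim10 had 1976 counts over the KO group and 2 over the Con group, both in replicate 3, 1554-fold higher (counting interval 430 to 12839). Its fitted log2 fold change was 10.31, and 12.69 without Con replicate 3. Alox15, a lipoxygenase also made by other myeloid cells, rose by 5.59. Fbxo7 rose by 1.09 and Gclm fell by 0.79. Of 11 genes listed for early erythroid and stem progenitors 6 rose and 5 fell (median 0.81), and with library size only 5 rose and 5 fell. Slc25a21 had 252 counts in KO and 3 in Con, 132-fold higher (44.7 to 645; fitted log2 fold change 6.84, and 9.69 without Con replicate 1), and Gata2, a factor of early progenitors and mast cells, fell by 2.79. Ermap, Hbb-bt, Klf1, Cpox, Epor and Tfrc are in this list and also in lists given above. Of the genes in this list alone Slc25a21 rose, while Kit, Gata2, Cd36 and Mt1 fell by 0.44, 2.79, 3.35 and 0.93.

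**Figure D4:**
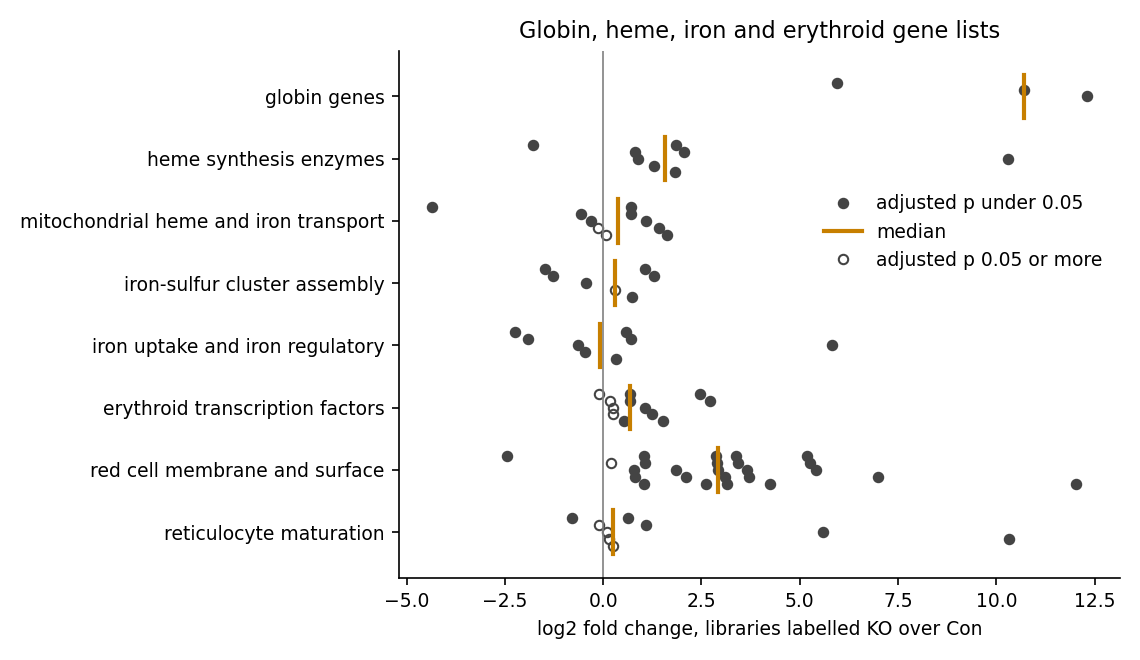
Log2 fold changes (libraries labelled KO over Con, TMM scaling) of the tested genes reported here in 8 lists. Filled points passed an adjusted p of 0.05 and open points did not. Orange bars are list medians, from -0.08 for iron uptake to 10.70 for the globins, which is the value of Hba-a1. The 2 alpha-globin copies, Alas2, Slc4a1 and Trim10 stand at 10 or above.

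Genes near the members on their chromosomes changed by far smaller factors or fell. In RefSeq order the nearest gene of the table on one side of the alpha-globin copies is Mpg, a DNA glycosylase gene, and on the other Sh3pxd2b. Mpg was at 13.6 ± 1.65 CPM in KO and 8.27 ± 0.776 CPM in Con (log2 fold change 0.72, or 0.36 with library size only, where it did not pass). Sh3pxd2b fell by 4.17. Beside Alas2 on chromosome X, Apex2 rose by 1.04, Tro had too few counts to be tested, and Maged2, Gnl3l and Fgd1 fell by 0.64, 0.50 and 2.05. Without Con replicate 3 Maged2 did not pass (adjusted p = 0.0547). Of the 2 listed neighbours of alpha-globin 1 rose and 1 fell, and of 5 listed and tested for Alas2 1 rose and 3 fell. These lists do not hold every neighbour. For comparison, 39.6% of all genes tested rose and 42.4% fell. Over all protein-coding genes from 8 places before to 9 after, 6 were tested around Hba-a1 (Hba-a2 left out), of which 2 rose and 2 fell, and 7 around Alas2, of which 3 rose and 3 fell. The genes named next were chosen after their values were seen. Near alpha-globin Stk10 rose by 1.70 and Nsg2 fell by 1.01, and near Alas2 Tmem29 rose by 1.70 and Fam120c by 0.61.

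The genes whose profile over the 6 libraries was most like the mean of the 3 members were mostly genes of neutrophils. The measure was the root mean square difference of log2 CPM, each centred on its own mean. The mean of the members lay at 5.10 to 5.61 in KO and -5.56 to -5.34 in Con. The measure therefore picks genes mainly by the size of their change between the groups. The closest were Camp, cathelicidin (0.29), Ltf, lactoferrin (0.41), Slc4a1 (0.47), the receptor gene Mrgpra2b (0.63), Ly6g, a surface marker of neutrophils (0.70), Retnlg (0.82), Cd177 (0.99) and Cd163 (1.18). Their log2 fold changes lay between 9.01 (Cd177) and 12.21 (Retnlg), and Slc4a1 was the only one from the lists of erythroid genes. Mrgpra2b counts are not whole numbers, so its value may be shared with close copies. Its Con counts were 0, 2 and 1, and the ratio of summed counts was 2983-fold (counting interval 1020 to 14470).

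Markers of other cell types moved with the same contrast. Late neutrophil markers rose in 14 of 14 genes tested and took 15.6% to 18.0% of counts in KO and 0.911% to 0.986% in Con. Of 13 macrophage markers 8 rose and 5 fell, with 0.178% to 0.303% of counts in KO and 0.304% to 0.369% in Con. Of 8 B cell markers 6 rose and 2 did not pass (0.00879% to 0.0263% in KO, 0.00498% to 0.00897% in Con), and of 9 T and NK cell markers 7 rose and 2 fell (0.0159% to 0.0166% in KO, 0.0461% to 0.0689% in Con), with Ncr1, an NK cell receptor, at 0 in the Con group. Of 6 megakaryocyte and platelet markers 3 rose and 1 fell (0.0130% to 0.0255% in KO, 0.0262% to 0.0284% in Con). For macrophages, T and NK cells and megakaryocytes the summed share was lower in KO although more markers rose than fell. A summed share follows its most abundant genes. Vwf was at 22.5 CPM in KO and 184 CPM in Con, Gzmb at 7.10 and 303 CPM, and Cd28 at 5.52 and 113 CPM. The macrophage ranges nearly met, at 0.303% in KO and 0.304% in Con. The part of these cell types in the changes of alpha-globin and Alas2 was not tested.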

How the data were processed

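The table deposited by the authors holds estimated counts (expected counts) of reads per gene, 1 column per library and not scaled, per the file headers. In 15.6% of its 9295 genes some value is fractional, and values were rounded for the tests. GRCh38, which is human, is the only build in the submitters' processing notes, while IDs and symbols are those of mouse. Aligner and counter are not given in the labels. Libraries were made from TRIzol RNA with a BGI mRNA kit, per the labels' protocols. No table column was left unused.

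KO and Con were compared with edgeR 4.0.16 in R 4.3.3 (TMM, filterByExpr, robust quasi-likelihood test, two-sided, no covariate), adjusted over the 8358 genes that passed (Benjamini-Hochberg, threshold 0.05) and tested on simulated data. In the simulated data 200 genes changed, up and down alike, so the fit was not checked where most genes change. CPM used TMM-scaled totals. Log2 CPM used a prior count of 2. DESeq2 1.42.0, limma-voom 3.58.1, other scalings and filters, and fits without each library were alternatives. Groups with 1 to 3 counts get a ratio with an exact 95% interval, which covers counting error alone (reads copied by PCR need not be separate molecules). At these totals 1 CPM is about 10 counts, so Con levels of Alas2 are imprecise.

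Members and the 18 gene lists were chosen with earlier results of these data known. Named genes are the members, the globin and heme enzyme genes in the table, the 4 called genes with the smallest adjusted p in each other pathway list, members that go against their list, and the 8 genes most like the members. Sequences are from RefSeq (GRCm38.p6) and GENCODE M21. Gene symbols are those of the table. Of the listed genes 2 are not reported here and are left out of the counts over lists, but not of the fit.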

Additional observations from a re-analysis of the deposited data

How the results depend on the processing

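The log2 fold changes of Hba-a1, Hba-a2, Alas2 and summed alpha-globin kept their direction under all 16 alternatives run, and the 3 single genes passed the threshold in each. In that order they ranged from 10.34 to 10.88, 11.95 to 12.59, 9.95 to 10.93 and 10.72 to 11.23. The lowest value of each came from library size as the only scaling. Leaving out 1 library gave 10.60 to 10.88, 12.08 to 12.59, 9.98 to 10.93 and 10.96 to 11.23. The number of genes called in KO against Con was 6854, with 6007 to 7215 under the alternatives, 6485 to 6855 without 1 library and 6557 with Con replicates 2 and 3 summed. Library size as the only scaling lowers the median of all genes by 0.35, and signs turned there for Papola (-0.13) and, among listed genes, Clpx (-0.29), Pcbp1 (-0.034), Bnip3l (-0.26), Fdxr (-0.0704), Zfpm1 (-0.19), Foxo3 (-0.12), Myb (-0.11), Gypc (-0.16), Ube2o (-0.22), Rnf123 (-0.098), Tsr2 (-0.057) and Gp9 (-0.11). Of these only Clpx and Bnip3l passed the test there, and Papola and Pcbp1 with TMM scaling. The sign of Clpx also turned with upper-quartile scaling (-0.022). Leaving out 1 library turned the sign of Gfi1b (range -0.209 to 0.088), Trim58 (-0.20004 to 0.081), Ms4a1 (-0.724 to 0.00625) and Gp9 (-0.12 to 0.434). Same-numbered libraries of the groups share only a number. Correlations of their deviations from the group means were -0.0017, 0.028 and -0.0037, and KO replicate 1 was closer to Con replicate 2 than to its own number. With the replicate block the number of genes called was 6766, and Hba-a1, Hba-a2 and Alas2 were at 10.68, 12.28 and 10.29. Among the members, Alas2 rests on 14 Con counts.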

Other observations

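The list of macrophage markers split by gene. Macrophages of the spleen take up spent red cells and return their iron. Slc40a1, ferroportin, the exporter that releases this iron, was at 410, 425 and 387 CPM in KO replicates 1, 2 and 3, against 15.3, 19.9 and 18.6 CPM in Con replicates 1, 2 and 3, and rose by 4.51 on the log2 scale. Vcam1, an adhesion molecule, rose by 4.71 and Spic, a transcription factor, by 3.95. The complement genes C1qa, C1qb and C1qc rose by 7.38, 5.98 and 5.65, and Cd5l by 8.09. Of the same list Adgre1, which encodes the F4/80 antigen, was at 149 ± 31.7 CPM in KO and 945 ± 119 CPM in Con (SD, n = 3 each), and fell by 2.67. Cd68 fell by 2.89, Marco fell by 2.48, Ms4a7 fell by 1.85 and Cd14 fell by 1.18. Each of these passed edgeR's test at the threshold used above. The libraries are of bone marrow, not spleen, and which cells hold these transcripts was not tested. Within the KO group replicate 1 had the lowest level of 12 of the 13 markers in this list, rising and falling ones, with Slc40a1 as the exception.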
